A study of Mus musculus with 8 samples.

Results

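Arginine and nitric oxide metabolism was followed here through 9 genes, namely Slc7a2, Nos2, Gch1, Ass1, Asl, Ddah2, Arg1, Arg2 and Odc1. They were found by gene symbol among the 31406 genes of the deposited table, and all 9 passed the filter on low counts that left 18756 genes for testing. The cells were primary cultures of striatal microglia, brain-resident immune cells, prepared from wild-type C57/BL6 pups a few days old and kept for 15 days. The cells of all 8 libraries were activated for 48 h with lipopolysaccharide (LPS, 0.01% v/v) and interferon-γ (0.002% v/v), so activation itself is shared by both groups and cannot be read from these libraries. Ligands were added at 24, 32 and 40 h. By the sample titles, 4 libraries received SCH 58261, an antagonist of the adenosine A2A receptor (A2A antagonist group), and 4 received SCH 58261 together with 2-Cl-IB-MECA at 200 nM, an agonist of the adenosine A3 receptor (dual group). A second label, the treatment entry, states the reverse, as it gives 2-Cl-IB-MECA to the libraries titled with the antagonist alone and omits it from those titled with both. The names of the count columns match the titles, and the direction of every difference given here rests on them. The reagent list of the study names human interferon-γ, although the cells are from mouse. No source says whether the 8 libraries came from separate cultures or animals, so p-values measure only the spread between these libraries, which may be technical.

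Arginine enters macrophages and microglia through cationic amino acid transporters and is then shared between competing enzymes. Inducible nitric oxide synthase, encoded by Nos2, turns it into nitric oxide and citrulline, and argininosuccinate synthase and lyase can rebuild arginine from the citrulline. Arginases cut arginine into urea and ornithine, and ornithine decarboxylase passes ornithine on to the polyamines. High Nos2 is a textbook mark of macrophages activated by LPS and interferon-γ, and high Arg1 of mouse macrophages exposed to interleukin-4, although both can be present together.

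The libraries held 32630602 to 45878639 counts, and 26155 to 26809 genes were detected in each. At an adjusted p-value under 0.05 in edgeR's quasi-likelihood test (Benjamini-Hochberg), 39 of the 18756 genes (0.208%) differed between the groups, and 1 (0.00533%) when a 1.5-fold change was also required. The called genes were 9 that were higher with both ligands (0.048%) and 30 that were lower (0.16%). The cultures carried the markers of several cell types. Summed over its 10 markers, the microglial list reached 681.95 to 781.1 FPKM (fragments per kilobase of gene length, scaled to library depth) in the A2A antagonist libraries and 642.43 to 674.27 FPKM in the dual libraries, which do not overlap. C1qa, at 420 FPKM on average, made up most of this sum, and without it the other 9 markers summed to 268.71 to 301.27 and 271.97 to 284.75 FPKM, which overlap. Of the 10 markers 4 had a positive and 6 a negative log2 fold change, and the median was -0.021. The dual values of Csf1r (45.85 to 49.56 FPKM) all lay above those with the antagonist (42.89 to 45.42 FPKM). Its log2 fold change was 0.11 ± 0.034 (SE, adjusted p = 0.171, edgeR). Aif1 went the other way, with -0.21 ± 0.055 (SE, adjusted p = 0.110, edgeR). It read 29.33 to 35.97 FPKM with both ligands and 35.67 to 39.55 FPKM with the antagonist. Of those 10, C1qa alone passed the test (log2 fold change -0.24 ± 0.040, SE, adjusted p = 0.024, edgeR), and the defining markers P2ry12 and Tmem119 were low, at 0.715 and 3.18 FPKM on average. The 8 astrocyte markers summed to 1257.9 to 1306.5 FPKM with the antagonist and to 1257.0 to 1335.6 FPKM with both ligands, with Gfap at 390 and Aqp4 at 256 FPKM. Fibroblast markers summed to 280.47 to 314.75 FPKM with the antagonist and 281.42 to 351.69 FPKM with both ligands. In the same order, ependymal markers summed to 105.12 to 114.85 and 106.94 to 124.05 FPKM. Oligodendrocyte markers summed to 92.07 to 94.76 and 86.51 to 93.12 FPKM, and mural markers to 63.54 to 71.30 and 66.49 to 73.84 FPKM. Neuronal, endothelial and neutrophil lists were lower, at up to 8.68, 11.75 and 12.48 FPKM summed. The endothelial marker Cldn5 and the neutrophil markers S100a9 and Ly6g had no entry in the table. In a bulk library, fewer cells of a type cannot be told apart from less RNA per cell, and which cells the 9 genes were read from is not known.

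Arg1 and Arg2 encode the cytosolic and the mitochondrial arginase. They are related genes that count separately, and a stretch of exon 5 shows how far their messages have diverged. The stretch lies at chr10:24916781-24916832 on the minus strand for Arg1 and at chr12:79150769-79150820 on the plus strand for Arg2 (GRCm38, GENCODE M21), and capitals mark the bases that are identical in both.
Arg1: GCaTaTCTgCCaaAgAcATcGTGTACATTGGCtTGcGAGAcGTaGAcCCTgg
Arg2: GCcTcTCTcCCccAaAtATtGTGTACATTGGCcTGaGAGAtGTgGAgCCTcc
Of these 52 bases 37 are identical, with a longest identical run of 12 bases. Over the 968 aligned bases of the coding sequences (969 bases in Arg1 and 1062 in Arg2) the identity was 62.6%. No 31-base word of an Arg1 transcript occurred in a transcript of another gene, Arg2 included.

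RefSeq promoters (GRCm38.p6) were at hand for 4 of the 9 genes, Ass1, Odc1, Gch1 and Ddah2, and 2 are printed because Gch1 had the smallest p-value among them and because the start sites of Gch1 and Ddah2 are the same in RefSeq and GENCODE. Each line gives the 250 bases before the start site, at chr14:47189414-47189663 on the minus strand for Gch1 and chr17:35058785-35059034 on the plus strand for Ddah2. Capitals mark the motifs found.
Gch1: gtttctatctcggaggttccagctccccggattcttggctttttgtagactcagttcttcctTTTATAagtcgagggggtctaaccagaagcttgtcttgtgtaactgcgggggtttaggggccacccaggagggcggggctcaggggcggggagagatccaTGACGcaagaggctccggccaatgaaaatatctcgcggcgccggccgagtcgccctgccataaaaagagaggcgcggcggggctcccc
Ddah2: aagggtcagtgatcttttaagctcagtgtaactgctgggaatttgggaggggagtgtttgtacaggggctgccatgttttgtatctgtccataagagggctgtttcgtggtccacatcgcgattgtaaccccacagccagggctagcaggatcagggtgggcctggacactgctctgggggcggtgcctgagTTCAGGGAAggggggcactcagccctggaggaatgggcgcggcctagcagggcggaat
The Gch1 promoter held TGACG, the core of the cyclic AMP response element, at -88, and TATAAA on the opposite strand (printed as TTTATA) at -188. Both strands were searched, and TGACG occurs in 20.8% and TATAAA in 13.6% of the 32851 RefSeq promoters of 300 bases. The Ddah2 promoter held the gamma-activated site TTCNNNGAA at -58, which occurs in 8.3% of the promoters. The Odc1 promoter held TGACG at -79 and the Ass1 promoter the E-box CACGTG at -36, which occurs in 7.15%, counted from RefSeq start sites that lie 79 and 63 bases from those of GENCODE. Also searched and not matched in these 4 promoters were the motifs for NF-kappa-B (in 1.63% of all promoters), the STAT6-type site (6.95%), the interferon response element (3.44%), C/EBP (TTGCNNAA, 10.8%), the hypoxia response element (TACGTG, 3.23%) and AP-1 (TGANTCA, 7.81%). A match is a description of the letters only, and a missing match says only that they are not in this window.

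The levels of the 9 genes covered a wide range when set per length. Odc1 was the highest with a mean of 86.0 FPKM over the 8 libraries (range 82.96 to 91.35), followed by Slc7a2 with 81.9 FPKM (77.3 to 86.2) and Ddah2 with 74.1 FPKM (65.1 to 81.2). The ranges of these neighbours overlapped, but within each library Slc7a2 lay above Ddah2. Odc1 lay above Slc7a2 in every library except dual replicate 4 (83.14 against 83.41 FPKM). Ass1 followed at 52.5 FPKM (45.1 to 57.4) and Nos2 at 40.3 FPKM (36.9 to 43.6), each clear of the gene above it. Of the 31-base words of Ass1 43.1%, and of those of Odc1 31.3%, also occur elsewhere, so their ranks hold only for the reads as counted. Arg1 stood at 26.4 FPKM, but its range of 15.1 to 54.2 FPKM spanned that of Nos2. Asl at 8.13 FPKM (7.15 to 8.61) and Gch1 at 7.33 FPKM (6.73 to 7.92) overlapped in range, with Asl the higher within each library. Both lay below every Arg1 value, and Arg2 was the lowest at 2.77 FPKM (2.43 to 3.06).

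**Figure D1:**
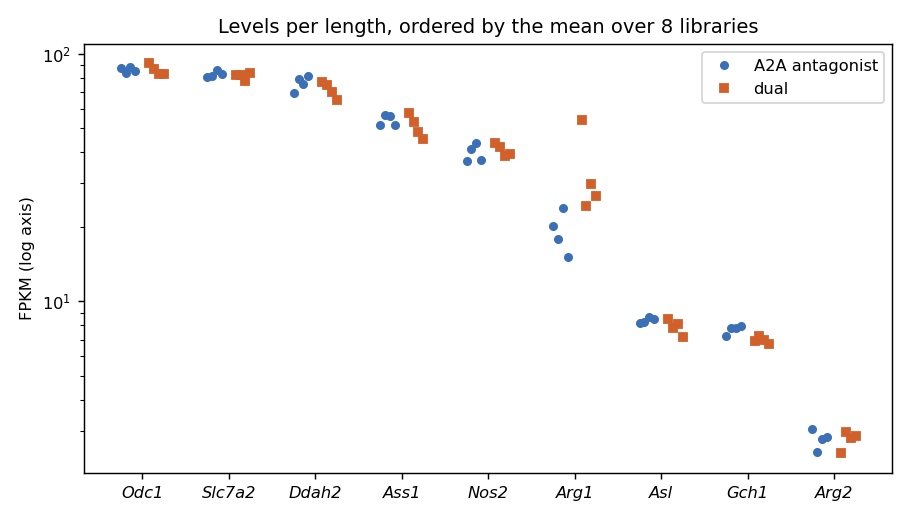
Level per length (FPKM, logarithmic axis) of the 9 genes, ordered by the mean over the 8 libraries, with 1 point per library (circles, A2A antagonist; squares, dual). Odc1, Slc7a2 and Ddah2 lie at the top, Arg2 at 2.43 to 3.06 FPKM lies at the bottom, and Arg1 has the widest spread.

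In the comparison of the groups, which asks what the A3 receptor agonist changed when given together with the A2A receptor antagonist, 0 of the 9 genes passed the adjusted threshold in edgeR, against 0.208% of all genes tested, and DESeq2 called 0 of the 8 it gave an adjusted p (all but Arg2), against 3.37% of 11313 genes. At an unadjusted p-value under 0.05, 2 of the 9 passed, Arg1 and Gch1, against 12.8% of all genes. Arg1 was the 1 higher in the dual libraries (5.98% of all genes) and Gch1 the 1 lower (6.81%). Among the 9 genes, 4 had a positive and 5 a negative log2 fold change, with a median of -0.026 beside 0.0038 over all genes tested. The CPM values (counts scaled to library size with TMM factors) of the groups did not overlap for Arg1 alone, against 7.41% of all genes (3.35% with the dual group higher and 4.06% with it lower).

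**Figure D2:**
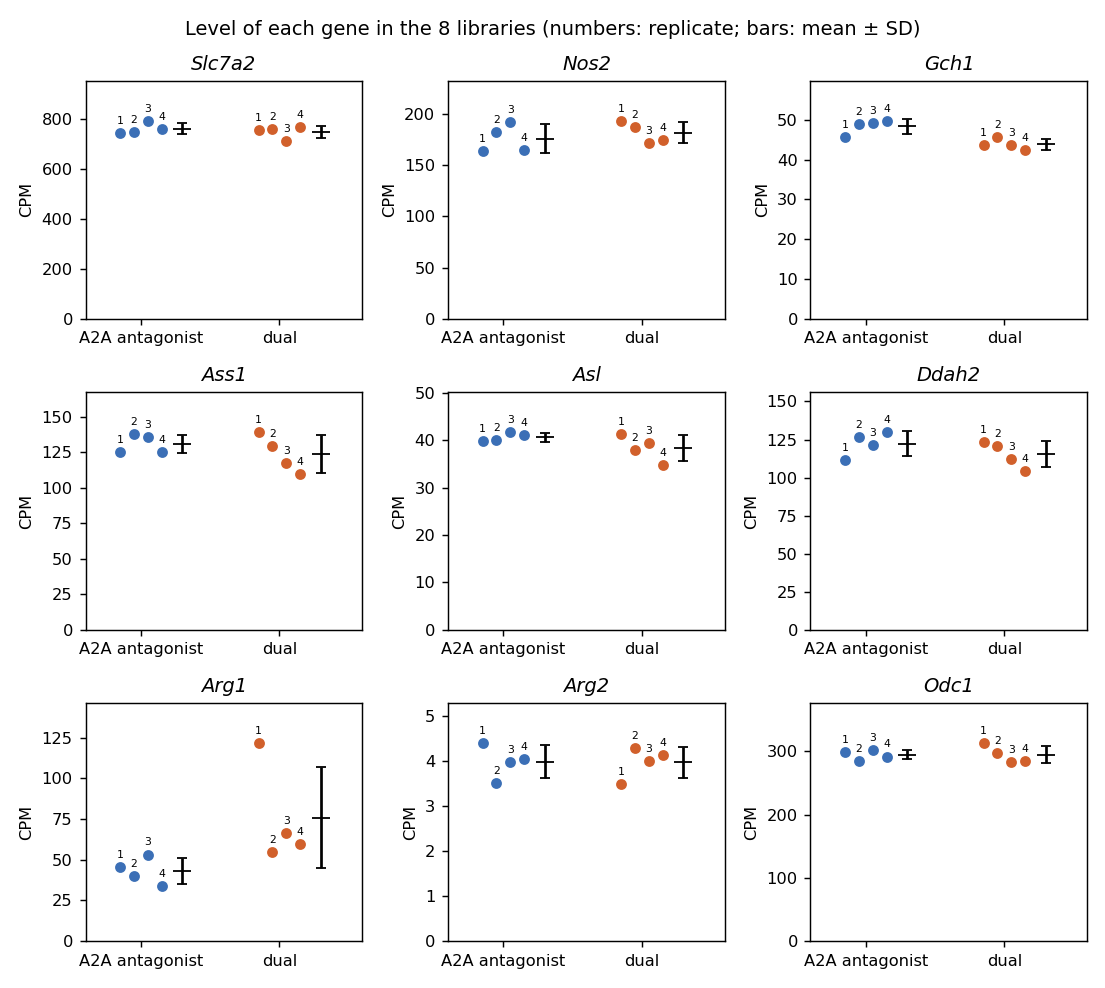
CPM of each gene in the 8 libraries, with the replicate number above each point and the mean ± SD (n = 4) as a bar beside each group. Arg1 is the one panel in which the groups do not overlap, and dual replicate 1 at 121.75 CPM stands above the other libraries there.

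**Figure D3:**
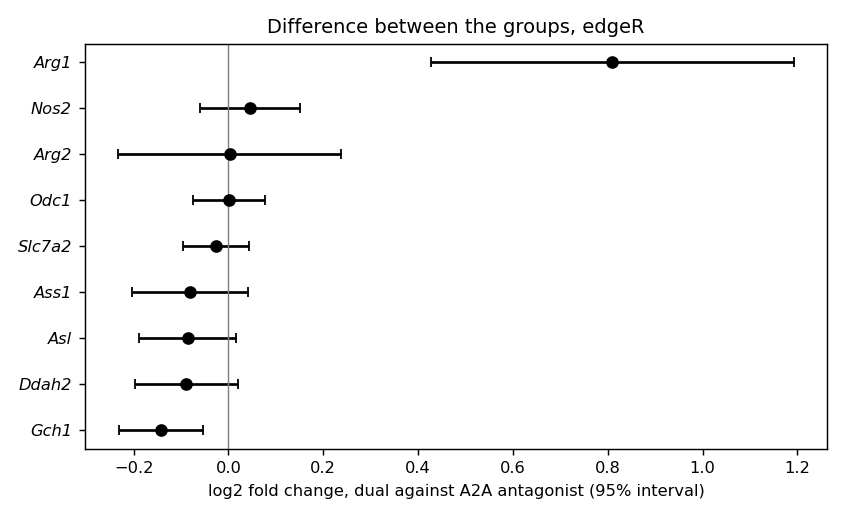
Log2 fold change of each gene (dual minus A2A antagonist), with its 95% interval from edgeR. The interval of Arg1 (0.43 to 1.19) lies above 0, that of Gch1 (-0.23 to -0.053) below 0, and those of the other 7 genes include 0.

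Slc7a2 encodes CAT2, the inducible cationic amino acid transporter that brings arginine into activated macrophages. Slc7a2 (ENSMUSG00000031596) lies at chr8:40862396-40922308 on the plus strand (GRCm38). The 4 A2A antagonist libraries read 741.54, 748.06, 791.92 and 759.87 CPM, and the 4 dual libraries read 752.54, 756.83, 709.48 and 767.98 CPM. The lowest value was dual replicate 3 and the highest A2A antagonist replicate 3, and the other 6 libraries overlapped. The means were 760.35 ± 22.4 and 746.71 ± 25.7 CPM (SD, n = 4). On the log2 scale the difference was -0.026 ± 0.033 (SE, adjusted p = 0.804, edgeR), and its 95% interval ran from -6.45% to 3.11%. On the opposite strand Gm26584 overlaps 635 exonic bases of Slc7a2, and it stood at 1.37 CPM with the antagonist and 1.63 CPM with both ligands.

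Nos2, the inducible nitric oxide synthase (ENSMUSG00000020826), lies at chr11:78920787-78960254 on the plus strand (GRCm38). It read 164.07, 182.61, 192.68 and 165.49 CPM with the A2A antagonist and 193.79, 187.4, 171.53 and 175.21 CPM with both ligands. Each group spanned almost the same interval, and both of the lowest values were A2A antagonist libraries. The log2 fold change was 0.046 ± 0.050 (SE, adjusted p = 0.761, edgeR), and its 95% interval ran from -4.02% to 11.0%. Per length, Nos1 and Nos3, the neuronal and the endothelial synthase, averaged 0.0322 and 0.424 FPKM over the 8 libraries, beside 40.3 FPKM for Nos2.

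Gch1 encodes GTP cyclohydrolase, the first enzyme in the synthesis of tetrahydrobiopterin, a cofactor that Nos2 needs. Gch1 (ENSMUSG00000037580) lies at chr14:47153895-47189413 on the minus strand (GRCm38). The A2A antagonist libraries read 45.59, 48.91, 49.09 and 49.78 CPM and the dual libraries 43.58, 45.72, 43.69 and 42.4 CPM. All but 1 of the A2A antagonist values lay above every dual value, and the exception, replicate 1 at 45.59 CPM, fell just under dual replicate 2. Group means were 48.34 ± 1.87 and 43.85 ± 1.38 CPM (SD, n = 4). The difference of -0.14 ± 0.042 (log2, SE) had an unadjusted p of 0.00362, but the adjusted p of 0.153 in edgeR did not pass, and DESeq2 gave an adjusted p of 0.0581. With DESeq2's independent filtering set to 0.05, an alternative chosen after the data were seen, the adjusted p was 0.048.

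Ass1 and Asl, argininosuccinate synthase and lyase, act in sequence to rebuild arginine from citrulline. Ass1 (ENSMUSG00000076441) lies at chr2:31470207-31520672 on the plus strand (GRCm38). Ass1 read 125.42, 137.77, 135.63 and 125.3 CPM with the antagonist and 139.57, 129.65, 117.23 and 109.66 CPM with both ligands. The dual libraries held both the highest and the lowest Ass1 value, and the difference (log2 fold change -0.081 ± 0.058, SE, adjusted p = 0.600, edgeR) was within the spread. Asl (ENSMUSG00000025533) lies at chr5:130011258-130029247 on the minus strand (GRCm38). Asl read 39.79, 40.01, 41.8 and 41.09 CPM with the antagonist and 41.23, 38.0, 39.38 and 34.83 CPM with both ligands. Dual replicate 4 was the lowest and dual replicate 1 lay among the A2A antagonist values, and the log2 fold change of -0.086 ± 0.049 (SE) did not pass (adjusted p = 0.486, edgeR). The ratio of Ass1 to Asl, per length, was 6.45 ± 0.34 and 6.47 ± 0.41 (SD, n = 4), a difference smaller than the SD. Of the 31-base words of Ass1, 43.1% also occur elsewhere, mainly in the pseudogene Gm5424, so reads could be split between the pair, and Gm5424 differed little between the groups (35.2 and 35.9 CPM).

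Ddah2 belongs to the dimethylarginine dimethylaminohydrolase family, named for the breakdown of asymmetric dimethylarginine, a natural inhibitor of nitric oxide synthases. Activity of its protein was not measured here. The gene (ENSMUSG00000007039) is located at chr17:35059035-35062095, plus strand (GRCm38). Ddah2 read 111.46, 126.47, 121.4 and 130.11 CPM with the antagonist and 123.34, 120.62, 112.34 and 104.52 CPM with both ligands. The groups overlapped over most of their range, and the log2 fold change was -0.089 ± 0.052 (SE, adjusted p = 0.505, edgeR). Ddah2 and its relative Ddah1 were at nearly equal levels per length, with a ratio of 1.18 ± 0.074 with the antagonist and 1.12 ± 0.049 with both ligands (SD, n = 4).

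Arg1 showed the clearest separation of the 9 genes. Arg1 (ENSMUSG00000019987) lies at chr10:24915221-24927484 on the minus strand (GRCm38). The A2A antagonist libraries read 45.25, 39.84, 53.13 and 33.79 CPM, and the dual libraries read 121.75, 54.76, 66.31 and 59.8 CPM. Every dual value exceeded every A2A antagonist value, but the gap between the groups was small (53.13 against 54.76 CPM) and dual replicate 1 was far above the other 3. Group means were 43.0 ± 8.22 and 75.65 ± 31.1 CPM (SD, n = 4), a 1.75-fold difference in the edgeR fit with a 95% interval of 34.4% to 128% higher. A difference of over 1.5-fold upwards, whatever its p-value, was found in 1.96% of all genes, and one of over 1.5-fold downwards in 0.714%. The log2 value was 0.81 ± 0.18 (SE), with an unadjusted p of 0.000311 and an adjusted p of 0.0651 in edgeR, so Arg1 did not pass. It was the highest log2 fold change among the 11062 genes whose mean log2 CPM reached 3. Of the less abundant genes tested, 128 had a higher one, all with a mean log2 CPM of 0.96 or less. Without dual replicate 1 the log2 fold change was 0.49 ± 0.10 (SE, adjusted p = 0.0537, edgeR) and Arg1 ranked 7 of the 11062. Without dual replicate 2 it was 0.93 and passed, with an adjusted p of 0.0387, but the adjusted p was 0.199 without A2A antagonist replicate 4, 0.183 without A2A antagonist replicate 2 and 0.121 without dual replicate 3, and DESeq2 gave 0.119 with all libraries. Dual replicate 1 also had the highest summed level of the 6 fibroblast markers, at 351.69 FPKM beside 280.47 to 329.48 FPKM in the other libraries. Its summed microglial level was the lowest with C1qa (642.43 FPKM) but not without it (274.35 FPKM). The same library also had the lowest astrocyte (1257.0 FPKM) and neutrophil (9.44 FPKM) sums. Its mural sum (73.73 FPKM) was just under the highest, that of dual replicate 2 (73.84 FPKM). The neutrophil sum rests on 3 of the 5 listed markers. The 2 that were tested, S100a8 and Camp, went in opposite directions (log2 fold changes of 0.32 and -0.29). The fibroblast sum was 280.47 to 314.75 FPKM with the antagonist and 281.42 to 351.69 FPKM with both ligands, and 0 of its 6 markers were called (3 at an unadjusted p-value under 0.05). The part of these cell types in the Arg1 values was not tested.

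Arg2 was low in every library. The gene (ENSMUSG00000021125) is located at chr12:79130777-79156301, plus strand (GRCm38). Arg2 read 4.4, 3.52, 3.97 and 4.05 CPM with the antagonist and 3.49, 4.28, 4.01 and 4.12 CPM with both ligands, from 114 to 184 counts each. The highest and the second lowest value were both A2A antagonist libraries, and the means were 3.98 ± 0.37 and 3.98 ± 0.34 CPM (SD, n = 4). Their difference on the log2 scale was 0.003 ± 0.11 (SE, adjusted p = 0.993, edgeR), and its interval of -14.9% to 17.9% is the widest after Arg1. An overlap with Vti1b and Gm48780 on the opposite strand covers part of Arg2, and 23.6% of the 31-base words of Arg2 also occur in other genes. Vti1b stood at 77.4 CPM with the antagonist and 73.9 CPM with both ligands, and since strand use in counting was not stated, reads there are uncertain. Per length, Arg1 exceeded Arg2 by 6.94 ± 1.35 with the antagonist and by 12.6 ± 6.57 with both ligands (SD, n = 4). That ratio reached 22.3 in dual replicate 1 and was 8.2 to 10.6 in the other 3 dual libraries, against 5.35 to 8.58 with the antagonist, so the groups overlapped.

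Odc1, ornithine decarboxylase, is the rate-limiting enzyme of polyamine synthesis and uses the ornithine that arginase makes. Odc1 (ENSMUSG00000011179) lies at chr12:17544794-17551505 on the plus strand (GRCm38). Odc1 read 299.73, 285.34, 301.57 and 291.84 CPM with the antagonist and 313.39, 297.41, 283.74 and 285.32 CPM with both ligands. The groups had nearly the same mean, 294.62 ± 7.49 and 294.97 ± 13.7 CPM (SD, n = 4), and the log2 fold change was 0.0015 ± 0.036 (SE, adjusted p = 0.990, edgeR). Its 95% interval ran from -5.02% to 5.5%. Of its 31-base words, 31.3% also occur elsewhere, mainly in Gm7993 and Gm9115, whose log2 fold changes were -0.015 and 0.029. Gm7993 stood at 106.4 CPM with the antagonist and 105.4 CPM with both ligands, and Gm9115 at 2.61 and 2.65 CPM. Reads could be split between Odc1 and these genes.

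Nos2 and Arg1 compete for arginine, and their ratio per length was compared as a description. It was 1.83, 2.31, 1.83 and 2.47 in the A2A antagonist libraries and 0.804, 1.73, 1.31 and 1.48 in the dual libraries. Every A2A antagonist ratio lay above every dual ratio, and only in dual replicate 1 did Arg1 exceed Nos2. Nos2 itself differed by less than its spread, so this ratio repeats the separation of Arg1 and is not a separate result. The other ratios computed, Gch1 to Gchfr and Ass1 to Nos2 among them, overlapped between the groups. No share over other gene pairs was computed. Across the 8 libraries, the log2 CPM of Arg1 and Nos2 had a Pearson r of 0.557 and that of Arg1 and Gch1 an r of -0.706. The highest r between any of the 9 genes were 0.775 for Ass1 and Ddah2, 0.764 for Gch1 and Ddah2, 0.762 for Ass1 and Asl and 0.742 for Asl and Ddah2, followed by 0.627 for both Ass1 and Odc1 and Gch1 and Asl. These correlations include the difference between the groups, and all values of a library share its depth.

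Among the same 11062 genes, the 5 whose log2 CPM followed Arg1 most closely over the 8 libraries were Cxcl3 (r = 0.950), Clec4d (0.943), Svil (0.937), St7l (0.927) and Slc20a1 (0.926). Cxcl3, a chemokine that attracts neutrophils, read 36.161, 26.85, 35.269 and 26.771 CPM with the antagonist and 56.908, 36.425, 40.515 and 33.428 CPM with both ligands. Clec4d, a C-type lectin receptor of myeloid cells, went from 52.1 ± 2.29 to 59.2 ± 4.87 CPM (SD, n = 4). All 5 genes were highest in dual replicate 1, as Arg1 was, and without that library r fell to 0.860 for Cxcl3 and 0.849 for Clec4d. Neither Cxcl3 nor Clec4d passed the test, with log2 fold changes of 0.42 ± 0.13 and 0.18 ± 0.052 (SE). Their adjusted p-values were 0.159 and 0.140 in edgeR. Svil, St7l and Slc20a1 did not pass either (adjusted p = 0.471, 0.184 and 0.411, edgeR). All 5 were picked for following Arg1 over these same libraries, so their differences between the groups are not separate results. DESeq2 gave 0.329 for Cxcl3 and 0.0467 for Clec4d. Without dual replicate 1 the log2 fold change of Cxcl3 was 0.24, and with the replicate number as a block its adjusted p was 0.0189. The 5 genes most like Nos2 were Ddx51 (r = 0.961), Psrc1 (0.924), Gm5182 (0.909), Golim4 (0.907) and Cdc25a (0.907).

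**Figure D4:**
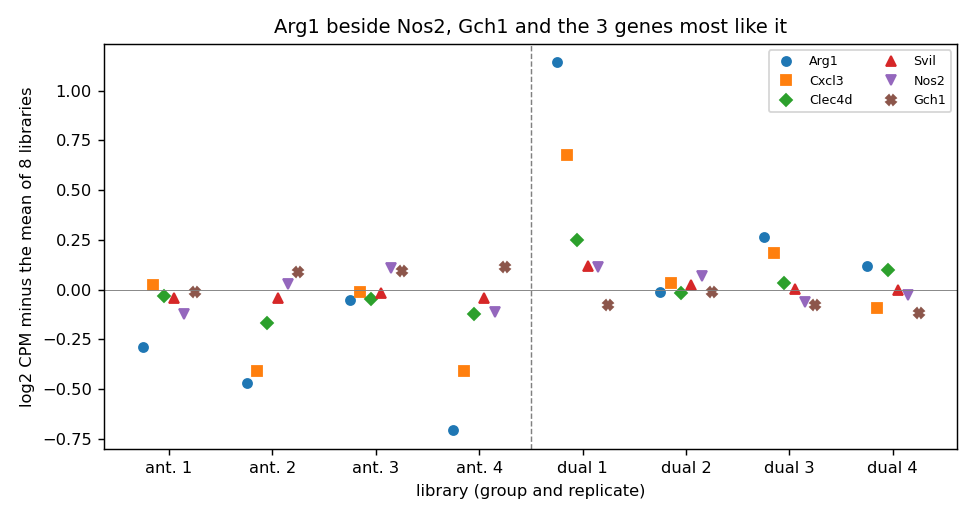
Log2 CPM minus the mean of the 8 libraries for Arg1, Cxcl3, Clec4d, Svil, Nos2 and Gch1, with 1 point per gene and library and a dashed line between the A2A antagonist (ant.) and dual libraries. Arg1, Cxcl3, Clec4d, Svil and Nos2 are highest in dual replicate 1, Nos2 only just (193.79 CPM beside 192.68 CPM in A2A antagonist replicate 3).

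The other genes of the pathway were taken from 8 lists with 90 genes, of which 88 were in the table and 81 passed the low-count filter. Of the 81, 0 were called in edgeR, against 0.208% of all genes, and DESeq2 called 5 of the 65 it gave an adjusted p (7.69%, against 3.37% of all genes). Of the 81, 21 were at an unadjusted p-value under 0.05 (25.9%, against 12.8% of all genes), 2 of them higher and 19 lower with both ligands. The median over the 81 was -0.023 on the log2 scale. The groups did not overlap for 12 of the 81 (14.8%, against 7.41% of all genes), and 11 of those were lower in the dual group. These counts describe the lists, which were not tested against other genes. The shares of all genes include weakly expressed ones, and no share matched for abundance was computed. Of the 11062 genes whose mean log2 CPM reached 3, 5253 were higher and 5809 lower with both ligands. Over all genes tested, 9664 were higher and 9092 lower.

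Among the 12 transcription factors known to act on Nos2 or Arg1, Irf1 had the smallest p-value. Irf1, an interferon-induced activator of Nos2, read 127.37, 132.8, 138.23 and 137.28 CPM with the antagonist and 121.87, 118.47, 118.17 and 117.89 CPM with both ligands, with no overlap between groups. Its log2 fold change was -0.17 ± 0.035 (SE) and its adjusted p of 0.0557 in edgeR just missed the threshold, while DESeq2 gave 0.00056. Rela (-0.076 ± 0.036) was also at an unadjusted p-value under 0.05.

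In arginine transport, 3 of 8 tested genes were at an unadjusted p-value under 0.05, Slc38a9 (0.14 ± 0.054, log2, SE) higher and Slc7a1 and Slc7a7 (-0.14 ± 0.050) lower, against 5.98% of all genes higher and 6.81% lower. Slc7a1, which encodes the constitutive transporter CAT1, read 61.676, 57.964, 57.005 and 57.061 CPM with the antagonist and 50.568, 52.654, 52.685 and 53.962 CPM with both ligands, so each dual value was below each A2A antagonist value. The log2 fold change was -0.15 ± 0.040 (SE, adjusted p = 0.107 in edgeR and 0.0186 in DESeq2). Slc7a2 was far more abundant per length than Slc7a1, with a ratio of 16.5 ± 0.99 with the antagonist and 18.0 ± 0.74 with both ligands (SD, n = 4).

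In polyamine synthesis and breakdown, 4 of 15 genes were at an unadjusted p-value under 0.05, each with a negative log2 fold change, against 6.81% of all genes. Eif5a, the translation factor that carries the polyamine-derived residue hypusine, read 341.95, 348.42, 340.16 and 349.82 CPM with the antagonist and 326.01, 316.64, 315.46 and 311.9 CPM with both ligands. The groups did not overlap, and the log2 fold change was -0.12 ± 0.030 (SE, adjusted p = 0.0913 in edgeR and 0.0014 in DESeq2). The spermidine and spermine synthases Srm (-0.16 ± 0.055) and Sms (-0.14 ± 0.049) and the antizyme Oaz1 (-0.096 ± 0.040) were the others.

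In the urea cycle and the ornithine, proline and creatine branches, 5 of 10 tested genes were at an unadjusted p-value under 0.05, all lower in the dual group, against 6.81% of all genes. Gatm, which starts creatine synthesis from arginine and glycine, read 149.15, 149.02, 155.71 and 154.02 CPM with the antagonist and 129.47, 142.78, 133.65 and 147.71 CPM with both ligands, with a log2 fold change of -0.13 ± 0.040 (SE, adjusted p = 0.154 in edgeR and 0.040 in DESeq2). Gamt, Pycrl and Aldh4a1 were among the others. Otc and Cps1, the mitochondrial entry enzymes of the hepatic urea cycle, were too low to test.

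The remaining lists are read against the same shares. For dimethylarginine formation and breakdown 1 of 9 genes was at an unadjusted p-value under 0.05, Prmt1 (-0.11 ± 0.034, SE, adjusted p = 0.174 in edgeR and 0.0451 in DESeq2), the main enzyme forming asymmetric dimethylarginine. Tetrahydrobiopterin synthesis and recycling held 3 of 9, all lower in the dual group, namely Akr1b3 (-0.095 ± 0.041), Cbr1 (-0.10 ± 0.046) and Qdpr (-0.12 ± 0.052). Among the nitric oxide synthases and their regulators there was 1 of 10, the chaperone Hsp90ab1 (-0.083 ± 0.031), and in nitric oxide sensing and removal 1 of 8, the cyclic GMP phosphodiesterase Pde5a (0.17 ± 0.080, SE, adjusted p = 0.380, edgeR; 0.10 without A2A antagonist replicate 4).

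**Figure D5:**
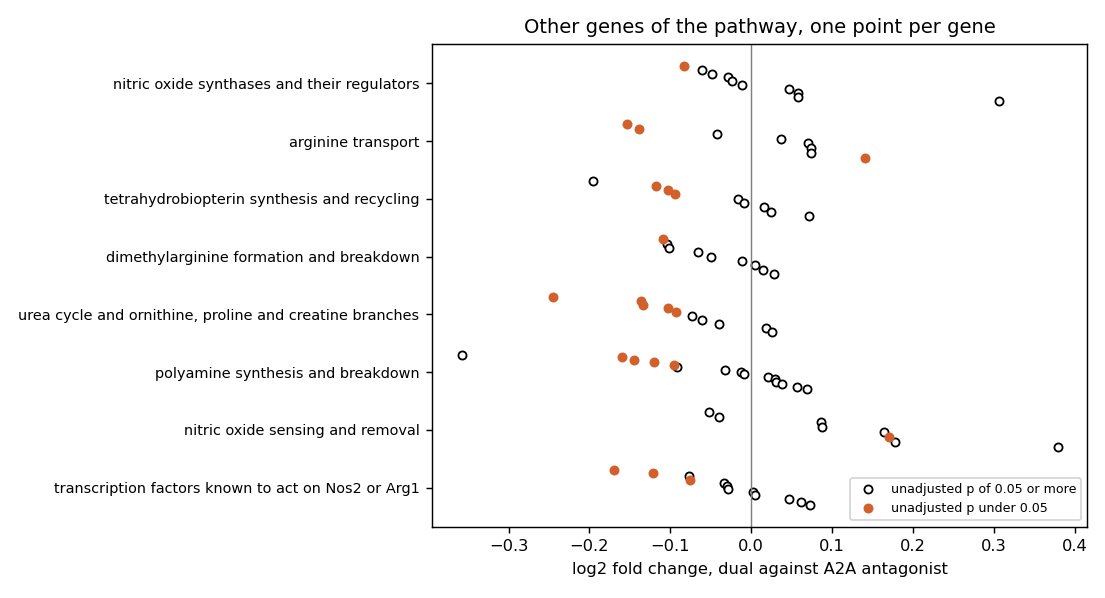
Log2 fold change of the 81 tested genes of the 8 pathway lists, with 1 point per gene and the genes at an unadjusted p-value under 0.05 filled. Of the 21 filled points, 19 lie below 0 and 2 above.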

How the data were processed

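Raw counts per gene were deposited by the authors for the 8 libraries, with no normalization or pooling, together with FPKM values that the authors derived from them and the gene length. Per the methods, reads were aligned with HISAT2 and counted with featureCounts (1.5.0-p3 in the submitters' processing notes, which name mm10). Whether strand was used is not stated. The authors' own log2 fold changes and p-values, also deposited, were not used. Columns of 3 controls (9 in all) match none of the samples analysed and stayed out of every step. Counts were tested with edgeR 4.0.16 (R 4.3.3): filterByExpr with a minimum count of 10, TMM factors, a quasi-likelihood F test of the dual against the A2A antagonist group without covariates, and two-sided p-values adjusted by the Benjamini-Hochberg procedure over 18756 genes, called under 0.05. Standard errors and 95% intervals were derived from the F statistics. CPM were scaled with TMM factors, and FPKM served comparisons between genes. The edgeR step was tried on simulated counts in which 200 genes were changed by known folds. Levels cover 32630602 to 45878639 counts a library, and pairs within a group differed by 3.8 to 9.43 times the chi-square per degree of freedom expected from counting, so none was a copy. Of the gene identifiers, 31389 occur in GENCODE M21 and 97.4% have the same coordinates there, as do all 9 genes. Alternatives were RLE factors, total counts, no low-count filter, CPM of at least 1 in 4 libraries, a replicate block, DESeq2 1.42.0, and each library left out. Named genes are the 9, the gene with the smallest p-value in each pathway list with others at an unadjusted p-value under 0.05 (the latter chosen after their values were seen), and the 5 most like Arg1 and Nos2 by Pearson r. The genes, lists and motifs were chosen with earlier results of these data known. Values of some single pathway genes are not reported here.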

Additional observations from a re-analysis of the deposited data

How the results depend on the processing

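Of the 9 genes, 0 were called in edgeR. That count was 1 without a low-count filter, 1 with the replicate block and 1 without dual replicate 2, each time Arg1, and 1 in DESeq2 with independent filtering at 0.05, which was Gch1. Leaving out each library gave 0 to 1. The adjusted p of Arg1 was 5.205e-08 without a filter and 0.0189 with the block, and 0.0625 to 0.0694 under the other scalings and the CPM filter, 0.119 in DESeq2, and 0.0387 to 0.199 when a library was left out. Its log2 fold change ranged from 0.49 (without dual replicate 1) to 0.93. The count over all genes, 39, was 366 without a filter, 17 with the replicate block, 381 in DESeq2 and 417 with its filtering at 0.05, and 0 to 172 when a library was left out (0 without A2A antagonist replicate 4 or dual replicate 3, 172 without A2A antagonist replicate 1). The count over the other pathway genes, 0, was 2 without a filter, 5 in both DESeq2 settings and 0 to 1 when a library was left out, the 1 being Irf1 without A2A antagonist replicate 1. Same-numbered libraries did not deviate together over the tested genes (r of 0.0207, -0.0529, 0.0408 and -0.0112). Such values over all genes cannot exclude that the numbers pair the samples, and no source states whether they do. The block was therefore kept as an alternative only. With it the SE was 0.117 for Arg1 (0.182 without) and 0.063 for Cxcl3 (0.127 without). Leaving out a library moved the log2 fold change of Ass1 between -0.14 (without dual replicate 1) and -0.027 (without dual replicate 4), of Asl between -0.12 and -0.042 (the same libraries), of Ddah2 between -0.13 (without A2A antagonist replicate 1) and -0.045 (without dual replicate 4), of Nos2 between 0.012 and 0.091 (without A2A antagonist replicates 1 and 3) and of Slc7a2 between -0.040 and -0.0051 (without dual replicates 4 and 3), and none was called. Some differences near 0 changed sign. For Arg2 the log2 fold change was -0.001715 without a filter and -0.05378 to 0.0551 when a library was left out. For Odc1 it was -0.004157 without a filter, -0.00104 in DESeq2 and -0.02921 to 0.01689 when a library was left out. With a library left out it was -0.007283 to 0.07095 for Psrc1 and -0.004826 to 0.03977 for Gm5182. The cause was not tested. Depth limits Arg2 most, with 114 to 184 counts a library.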
